A study of Mus musculus with 6 samples.

Results

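The genes described here are 6 of the synthesis and uptake route of retinoic acid: Stra6, Rdh10, Dhrs3, Aldh1a1, Aldh1a2 and Aldh1a3. They were taken by symbol from the 32285 genes of the deposited count table, and each symbol had 1 row. Single-cell RNA sequencing (10x Chromium 3′ chemistry, version 3) had been run on the dissected cardiogenic region of wild-type C57BL/6 mouse embryos at E10.5 (mid-gestation), with the surrounding non-cardiac mesoderm, ectoderm and endoderm included. The 6 samples were 3 from embryos of vehicle-treated, normal glycemic females and 3 from embryos of females made hyperglycemic before mating by streptozotocin, which is toxic to pancreatic beta cells; the males were normal glycemic. The table holds gene counts, and RNA is named by the kit and the sample titles, although the sample descriptions speak of a chromatin assay.

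Retinoic acid is a diffusible signal made from vitamin A, and it patterns the foregut, the pharyngeal arches and the venous end of the early heart. Stra6 is a membrane receptor that takes up retinol from its plasma carrier, Rdh10 oxidizes retinol to retinal, and Dhrs3 turns retinal back to retinol. The enzymes Aldh1a1, Aldh1a2 and Aldh1a3 then oxidize retinal to retinoic acid, each with its own tissue distribution, and Aldh1a2 is the main source in early embryonic mesoderm.

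All cells came in 1 pooled table whose barcodes end in a number from 1 to 6. Nothing read here ties a number to a sample, so the 6 sets are called libraries 1 to 6, no vehicle or streptozotocin value is given, and no test between treatments was made. Of 53362 barcodes, 35962 (67.4%) had at least 2500 detected genes and at most 10% mitochondrial counts; the libraries kept 4903 to 7136 cells each, with median depths of 30533 to 35634 unique molecular identifiers (UMIs, one per captured RNA molecule). Among kept cells, 283 carried a barcode sequence also found in another library, with 5 to 15 such sequences per pair of libraries. Over all barcodes, libraries 4, 5 and 6 shared 1003, 1423 and 1597 sequences with one another, and every other pair shared 66 to 374. A barcode sequence found at any depth in another library was carried by 2890 kept cells, 794, 897 and 551 of them in libraries 4 to 6 and 75 to 399 in each of libraries 1 to 3, with a median depth of 60175 UMIs. The highest type of each of the 6 genes was the same without these cells. Cells were placed in 18 types by marker genes, none of them among the 6, and 24103 cells (67.0%) were assigned to 1 type. The rest matched no gate (9032 cells), came near to a gate (1705), matched more than 1 non-mesenchymal type (493) or could not be split between epithelia (377) or mesenchymes (252). Of the markers that the gates themselves used, 10 of 12 were at least 2-fold above the other gated cells in Foxf1 mesoderm and 5 of 8 in anterior second heart field. In epicardium and mesothelium 9 of 9 were, in endoderm 9 of 10 and in surface ectoderm 10 of 10. Anterior second heart field is a short name, since the marker list of that gate covers pharyngeal mesoderm as well. Levels are a gene's share of the summed UMIs of a type, scaled to 1000000 (CPM), and intervals are 95% intervals for counting error only.

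Over all kept cells Aldh1a2 was the most abundant of the genes at 19.1 CPM (25070 UMIs), followed by Rdh10 at 15.3 CPM (20053 UMIs) and Aldh1a1 at 9.60 CPM (12588 UMIs). Stra6 stood at 6.26 CPM (8210 UMIs), Dhrs3 at 4.74 CPM (6211 UMIs) and Aldh1a3 at 0.694 CPM (910 UMIs). The counts are of molecules tagged at the 3′ end, so these levels need no division by gene length. Rdh10 was the most widely detected, in 28.4% of cells, and Aldh1a3 the least, in 1.99%. The 17400 barcodes outside the filter had 10.2 CPM of Aldh1a1, 13.2 CPM of Aldh1a2 and 10.6 CPM of Rdh10. The 9032 kept cells in no gate had 20.7 CPM of Aldh1a2 and 21.6 CPM of Rdh10. The 252 cells that tied between mesenchymal gates had 67.8 CPM of Aldh1a2.

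**Figure D1:**
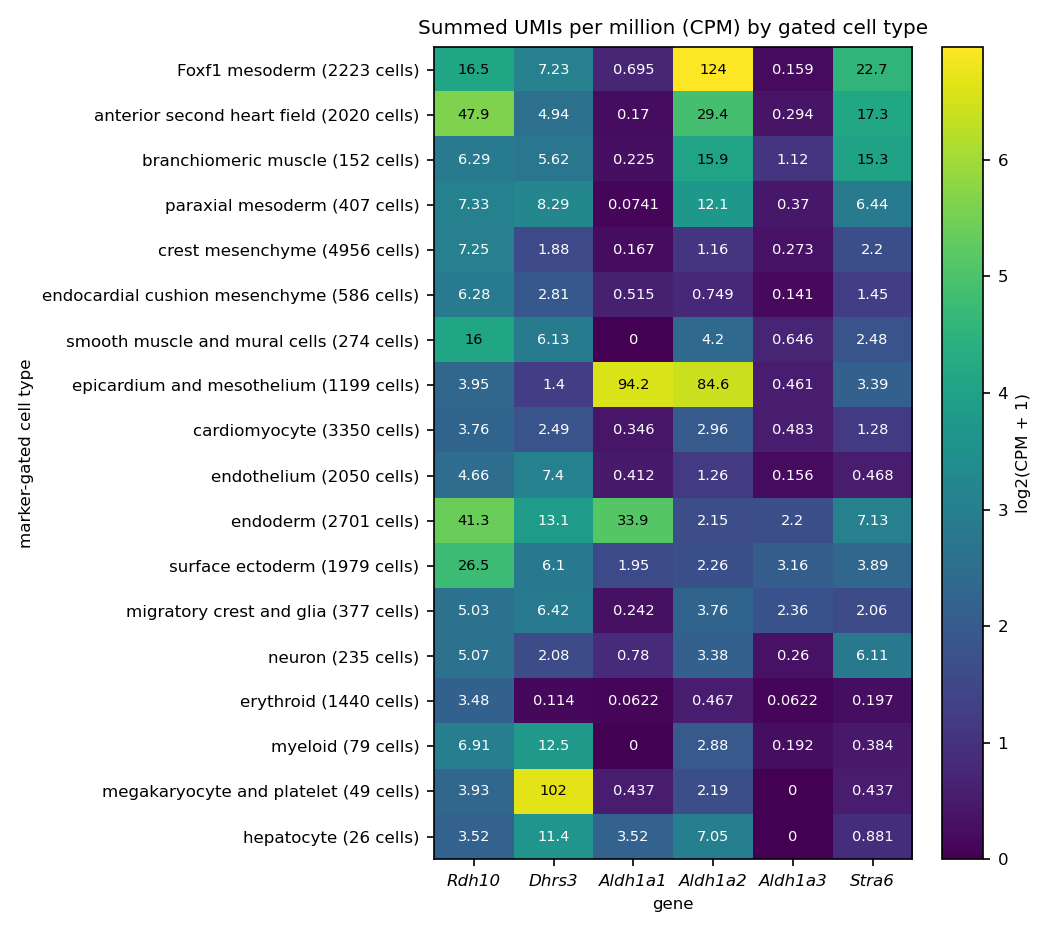
Summed level of each gene (columns, CPM printed in the cells and colored as log2(CPM + 1)) in the 18 marker-gated cell types (rows, with cell numbers). Aldh1a1 and Aldh1a2 were both high in epicardium and mesothelium, Rdh10 was high in anterior second heart field and endoderm, and Dhrs3 stood at 102 CPM in 49 megakaryocyte and platelet cells.

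The 6 genes did not share a pattern. No 2 of them had the same 2 leading types, and 5 of the 6 reached 10 CPM in their highest type. Of those, 2 (Aldh1a1 and Dhrs3) were at least 2-fold higher in that type than in the next, while 17.1% of the 12172 genes that reached 10 CPM anywhere did so. With 5 genes this share is a description only, and the Dhrs3 value rests on 49 cells. Across the 16 types with at least 50 cells, the log2(CPM + 1) levels of Stra6 and Aldh1a2 had a Pearson correlation of 0.717, those of Stra6 and Rdh10 0.575, and those of Dhrs3 and Rdh10 0.516. Aldh1a2 and Rdh10 gave 0.208, and Aldh1a3 and Aldh1a2 gave -0.0938. These are descriptions over types from the same libraries.

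**Figure D2:**
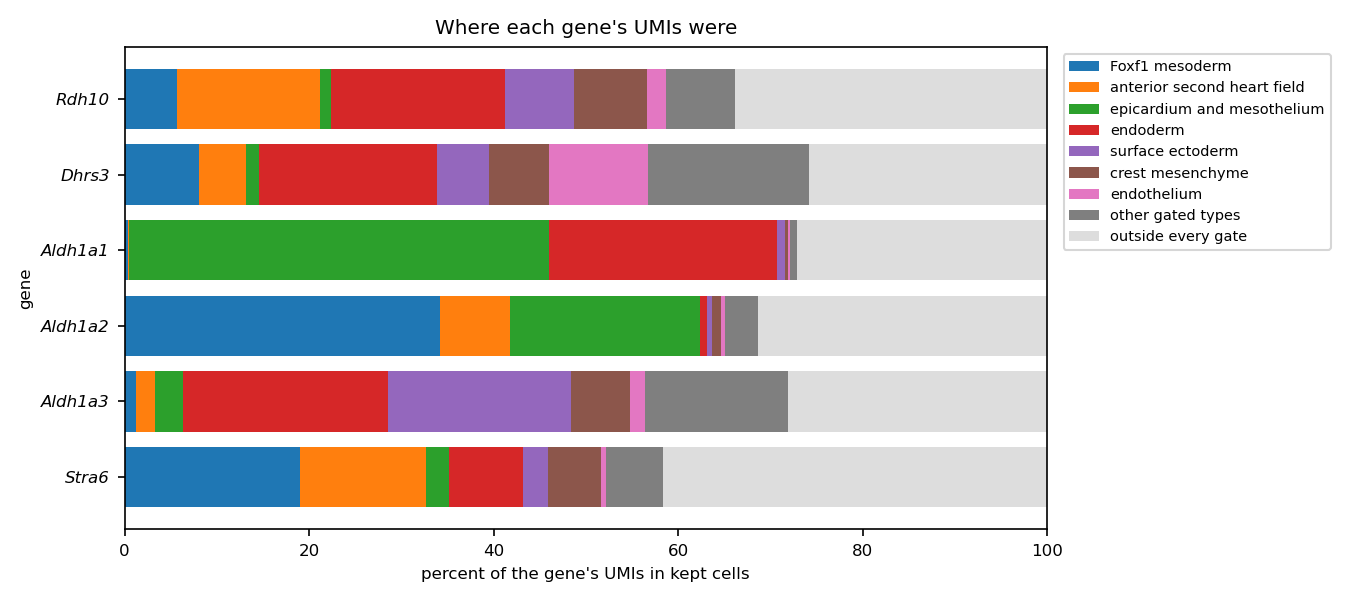
Share of each gene's UMIs (horizontal axis, percent of all its UMIs in kept cells) found in 7 gated types, in the other gated types and outside every gate. Epicardium and mesothelium held 45.5% of Aldh1a1 UMIs and Foxf1 mesoderm 34.2% of Aldh1a2 UMIs, while Stra6 had the largest share in cells outside every gate.

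Stra6 (chr9:58063788-58153996 on the plus strand, mm10) was led by mesoderm. It was highest in Foxf1 mesoderm, the cells with Foxf1 and other genes of the posterior second heart field or of foregut mesenchyme, at 22.7 CPM (21.6 to 23.8). It followed in anterior second heart field at 17.3 CPM (16.3 to 18.3) and in branchiomeric muscle progenitors at 15.3 CPM (11.9 to 19.4, 152 cells). In Foxf1 mesoderm the values of libraries 1 to 6 were 10.54, 16.1, 24.1, 25.9, 23.0 and 22.0 CPM, and in anterior second heart field 14.8, 19.0, 17.0, 17.05, 18.05 and 17.4 CPM. Foxf1 mesoderm was therefore higher in 4 of 6 libraries only, and the ranges overlapped. Library 1 was lowest in both types. A Stra6 UMI was found in 45.6% of Foxf1 mesoderm cells (median depth 29155 UMIs) and in 1.04% of erythroid cells (median depth 64968), a type that should lack it. The receptor was scarce in endothelium (0.468 CPM), endocardial cushion mesenchyme (1.45 CPM) and cardiomyocytes (1.28 CPM).

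Rdh10 (chr1:16105774-16133734, plus strand) spanned mesoderm and epithelium. It was highest in anterior second heart field at 47.9 CPM (46.3 to 49.7), then in endoderm at 41.3 CPM (40.0 to 42.6), surface ectoderm at 26.5 CPM, Foxf1 mesoderm at 16.5 CPM and smooth muscle and mural cells at 16.03 CPM. In anterior second heart field libraries 1 to 6 gave 35.7, 52.2, 25.9, 56.4, 53.7 and 53.6 CPM, with libraries 1 and 3 low. The mix of cells by Hox genes in this type differed between libraries, as given below. In endoderm libraries 1 to 6 gave 46.9, 44.6, 44.9, 37.8, 37.1 and 40.6 CPM, a narrower spread. Anterior second heart field was above endoderm in 4 of 6 libraries, so the order of these leading types was not the same throughout, whereas endoderm was above surface ectoderm in 6 of 6 with no overlap. Within endoderm, cells with thyroid and lung markers had 54.0 CPM, those with pharyngeal pouch markers 33.6 CPM and the other endoderm cells 42.7 CPM.

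A low level of Rdh10 was present in every type, including 3.48 CPM in erythroid cells, where 19.1% of cells had a UMI and hemoglobin stood at 400300 CPM. The levels in epicardium and mesothelium (3.95 CPM, 15.8% of cells) and cardiomyocytes (3.76 CPM, 13.1% of cells) were close to that erythroid value. Whether any of these low levels is expression or free RNA was not tested. The large hemoglobin share lowers the CPM of every other gene in erythroid cells. Erythroid cells had 0.0622 CPM of Aldh1a1 and 0.467 CPM of Aldh1a2, and barcodes outside the filter 10.2 CPM of Aldh1a1, 13.2 CPM of Aldh1a2 and 10.6 CPM of Rdh10. After every cell was thinned to 5000 UMIs, 18.9% of anterior second heart field cells and 20.1% of endoderm cells kept a Rdh10 UMI, against 1.53% of erythroid cells.

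Dhrs3 (chr4:144892827-144928209, plus strand), the enzyme of the reverse step, had its highest level in megakaryocyte and platelet cells at 102 CPM (89.6 to 116). That class held 49 cells, 4 to 14 per library, and 79.6% of them had a Dhrs3 UMI, with a median of 3 UMIs and at most 18. All 5 markers of the class were at least 2-fold above the other gated cells. Endoderm came next at 13.1 CPM (12.4 to 13.9), followed by 79 myeloid cells at 12.5 CPM (9.63 to 15.9). The ratio of megakaryocyte and platelet cells to endoderm was 7.81 (6.76 to 8.99), but no library had 20 such cells, so it has no check by library. Erythroid cells, the one large blood class, had 11 UMIs in 1440 cells, or 0.114 CPM.

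Endoderm showed a narrower spread than endothelium. It gave 12.0, 9.84, 13.5, 14.0, 14.8 and 13.3 CPM in libraries 1 to 6. Within endoderm the gene was higher in thyroid and lung cells (20.8 CPM; 16.8 to 24.3 by library) and in the other endoderm cells (19.3 CPM; 14.1 to 21.6) than in pharyngeal pouch cells (2.30 CPM). Endothelium had 7.40 CPM, made up of 5.17 CPM in endocardium, 10.9 CPM in vascular endothelium and 14.8 CPM in endothelial cells that entered neither class. The endothelial values of libraries 1 to 6 were 3.51, 7.18, 6.18, 12.5, 10.46 and 6.95 CPM, with library 1 lowest and library 4 highest. Epicardium and mesothelium, where Aldh1a1 and Aldh1a2 were high, had 1.40 CPM of Dhrs3, and crest mesenchyme 1.88 CPM.

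Aldh1a1 (chr19:20492715-20643465, plus strand) exceeded 5 CPM in 2 of the 18 types, epicardium with mesothelium and endoderm. Epicardium and mesothelium had 94.25 CPM (91.8 to 96.7), and endoderm 33.9 CPM (32.8 to 35.15). Surface ectoderm, at 1.95 CPM, was the next type with more than 26 cells. The ratio of the leading pair was 2.78 (2.66 to 2.90). It was 8.03 when every gate required 1 more marker, and 3.47 without library 3. In epicardium and mesothelium libraries 1 to 6 gave 96.7, 109, 94.1, 92.2, 86.8 and 72.0 CPM, and in endoderm 36.8, 33.4, 76.4, 15.7, 26.2 and 27.0 CPM. Epicardium was higher within each of the 6 libraries, although endoderm of library 3 stood above epicardium of library 6. Without the cells that shared a barcode sequence, epicardium and mesothelium gave 94.7, 103, 94.8, 50.2, 54.3 and 56.4 CPM (87.3 CPM pooled), and the pooled ratio to endoderm was 2.62. Libraries 4 to 6 lay below libraries 1 to 3 with and without these cells, and by more without them. When all cells were sorted by Hox genes, as described below, this order held only in the cells with groups 4 to 6. No Aldh1a1 UMI was counted in 274 smooth muscle and mural cells, which allows up to 0.323 CPM, or in 79 myeloid cells, which allows up to 0.576 CPM. Aldh1a7 is a near-identical copy of Aldh1a1, and reads could be split between them; it had 8.13 CPM in epicardium and mesothelium and 15.8 CPM in endoderm.

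The Aldh1a1 of the endoderm was uneven. Pharyngeal pouch cells had 63.1 CPM, with libraries 1 to 6 at 68.0, 54.2, 148, 31.9, 59.7 and 43.5 CPM, thyroid and lung cells 5.79 CPM, and the other endoderm cells 20.4 CPM. Library 3 was the highest in the pouch cells and in the other endoderm cells. In the pouch cells, 72.1% of cells had no Aldh1a1 UMI, and the 10% of cells with the most UMIs held 83.8% of the total. In epicardium and mesothelium 27.0% of cells were at 0 and the top 10% held 34.8%. The gene was thus spread over most epicardial cells and concentrated in a minority of pouch cells.

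Aldh1a2 (chr9:71215789-71296243, plus strand) was highest in Foxf1 mesoderm at 124 CPM (122 to 127), followed by epicardium and mesothelium at 84.6 CPM (82.3 to 86.9) and anterior second heart field at 29.4 CPM (28.1 to 30.8). Libraries 1 to 6 gave 73.8, 127, 104, 134, 135 and 124 CPM in Foxf1 mesoderm, and 74.4, 75.6, 122, 52.1, 84.4 and 72.8 CPM in epicardium and mesothelium. Foxf1 mesoderm was higher in 4 of 6 libraries, and libraries 1 and 3 were the exceptions. The pooled ratio was 1.47 (1.42 to 1.52), and 1.39 without the cells that shared a barcode sequence. Epicardium and mesothelium was above anterior second heart field in 6 of 6 libraries with no overlap. Foxf1 mesoderm cells with a UMI of Tbx4 or Nkx6-1, genes of foregut mesenchyme, had 130 CPM, and those without had 112.5 CPM. This order turned among cells with a UMI of Hox groups 4 to 6 (128.9 CPM with, 136 CPM without) and in library 3 (99.7 and 114.5 CPM), and 39 of the 1462 cells with either gene and 111 of the 761 without were among those found with no Hox UMI at 10000 UMIs. Libraries 1 and 2 held 18 and 20 cells with Tbx4 or Nkx6-1, against 251 to 496 in the others. They held 80 and 47 of the cells without, against 92 to 299. Library 1 gave 66.9 CPM without these genes and had too few cells with them for a value. Crest mesenchyme, the largest type with 4956 cells, had 1.16 CPM, and endothelium 1.26 CPM.

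Over all kept cells libraries 1 to 6 had 10.9, 12.1, 21.8, 20.2, 29.95 and 19.5 CPM of Aldh1a2, with libraries 1 and 2 lowest. The Foxf1 mesoderm gate held 98 and 67 cells in libraries 1 and 2 and 343 to 795 in the others. Within that gate library 2 was at 127 CPM, inside the 104 to 135 CPM of libraries 3 to 6, while library 1 was below them at 73.8 CPM. The gate, whose own markers include Hox genes, held unlike cells in each library: 28.9% of its cells in library 1 and 15.4% in library 2 had no Hox UMI, against 3.81% to 10.3% in libraries 3 to 6. Aldh1a2 stood at 51.7 CPM in Foxf1 mesoderm cells with no Hox UMI (150 cells), 125 CPM in those with Hox groups 1 to 3 only (345 cells) and 131 CPM in those with groups 4 to 6 (1706 cells). Among the last, libraries 1 to 6 gave 96.7, 129, 111, 139, 143 and 121.5 CPM, with library 1 still lowest.

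**Figure D3:**
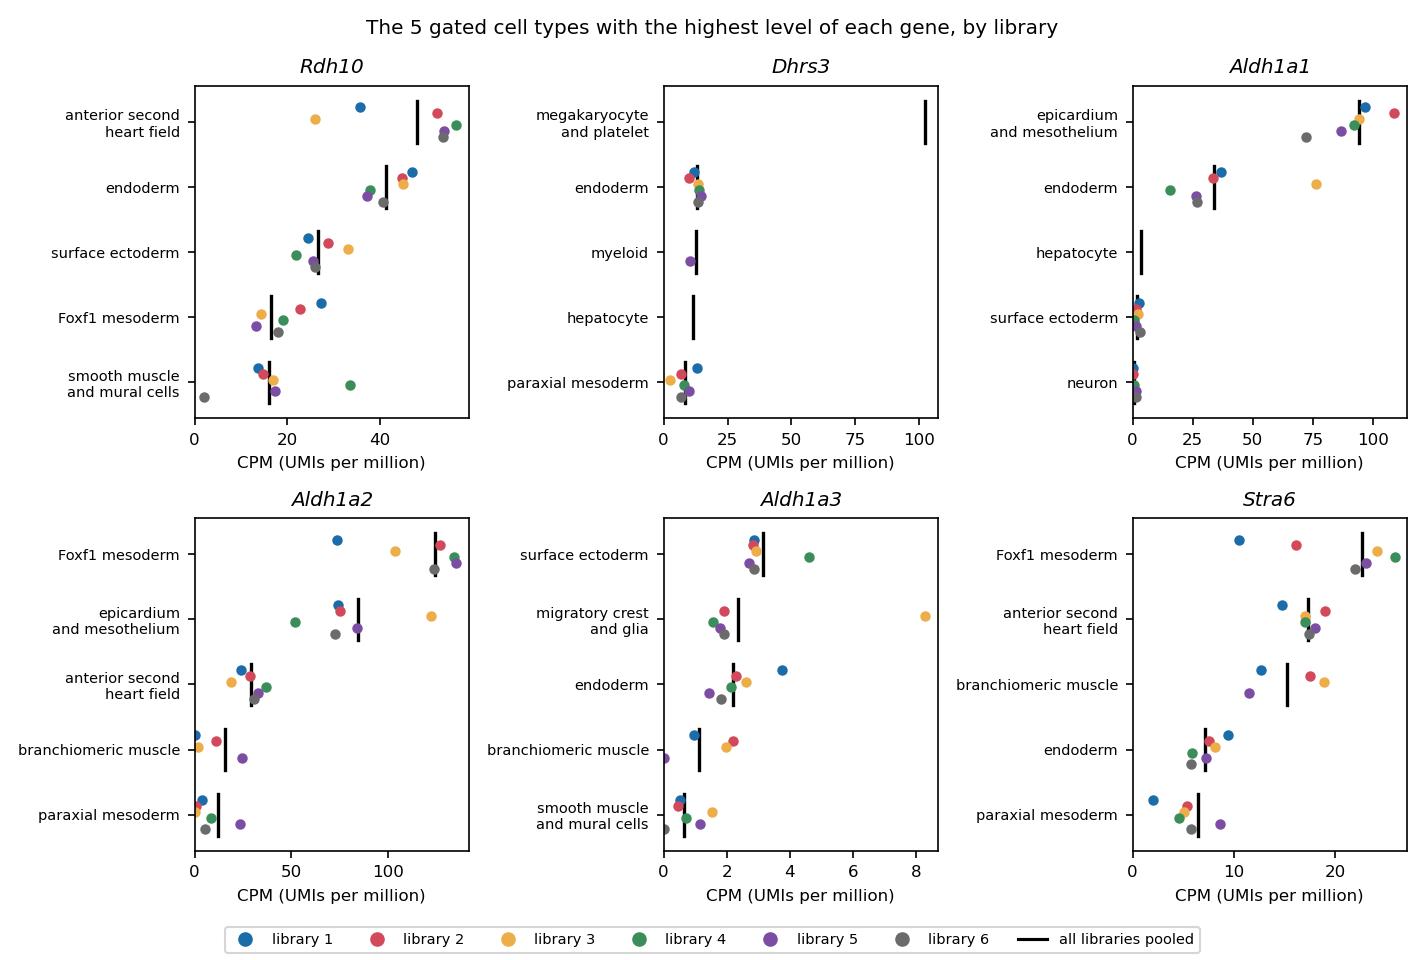
Level of each gene (horizontal axis, CPM, linear from 0) in its 5 highest gated types; points are libraries with at least 20 cells of the type and black bars the pooled value. Aldh1a2 of Foxf1 mesoderm was 73.8 CPM in library 1 and 104 to 135 CPM in the others, and Aldh1a1 of endoderm was 76.4 CPM in library 3 and at most 36.8 CPM elsewhere.

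Epicardium and mesothelium was the one type above 10 CPM for both Aldh1a1 and Aldh1a2. Their upstream windows are shown because of that shared type. RefSeq (GRCm38.p6) start sites were given for 4 of the 6 genes, as 10 entries, and the 250 bases before the start are printed for Aldh1a2 (chr9:71215539-71215788, plus strand) and for both Aldh1a1 starts, an upstream one (chr19:20492333-20492582, plus strand) and one inside the longer gene model (chr19:20601718-20601967, plus strand). Capitals mark matches to any of 8 short motifs searched on both strands.
Aldh1a2: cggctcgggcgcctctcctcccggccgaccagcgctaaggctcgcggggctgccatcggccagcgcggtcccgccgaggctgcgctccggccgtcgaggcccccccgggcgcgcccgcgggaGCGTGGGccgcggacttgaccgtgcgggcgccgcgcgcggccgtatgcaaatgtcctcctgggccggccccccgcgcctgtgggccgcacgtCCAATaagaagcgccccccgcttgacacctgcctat
Aldh1a1 upstream start: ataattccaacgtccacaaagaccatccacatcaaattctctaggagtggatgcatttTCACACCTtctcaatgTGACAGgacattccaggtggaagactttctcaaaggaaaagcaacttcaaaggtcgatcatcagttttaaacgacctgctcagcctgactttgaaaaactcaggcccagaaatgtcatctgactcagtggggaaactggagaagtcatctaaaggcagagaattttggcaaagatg
Aldh1a1 inner start: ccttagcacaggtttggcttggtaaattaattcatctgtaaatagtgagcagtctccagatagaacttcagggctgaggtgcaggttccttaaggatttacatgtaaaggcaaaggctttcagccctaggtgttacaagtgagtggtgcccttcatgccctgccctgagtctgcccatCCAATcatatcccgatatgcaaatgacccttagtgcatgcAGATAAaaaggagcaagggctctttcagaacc
The Aldh1a2 window held GCGTGGG, a core of the binding sequence of Wt1, starting 128 bases before the start site, and CCAAT 36 bases before it. The window of the inner Aldh1a1 start held CCAAT 72 bases and the GATA motif AGATAA 32 bases before it. That of the upstream Aldh1a1 start held the Meis motif TGACAG 176 bases and, on the minus strand, the T-box motif AGGTGTGA 192 bases before it. The longest stretch common to the Aldh1a2 window and that of the inner Aldh1a1 start was TATGCAAATG, 10 bases long, which starts 85 bases before the Aldh1a2 start and 57 bases before the Aldh1a1 start; it was looked for after the sequences were seen. With the upstream Aldh1a1 window the longest common stretch was 7 bases. Over 32851 RefSeq windows of the same length, CCAAT was present in 33.8%, AGATAA in 9.99%, TGACAG in 15.9%, GCGTGGG in 4.3% and AGGTGTGA in 1.12%, and TATGCAAATG was in 53 windows (0.161%). None of the motifs AGGTCA (the nuclear receptor core sequence, in 14% of windows), TAAACA (forkhead, 12%) and TATAAA (12.4%) was in any of these windows. The Aldh1a2 window was 77.6% G or C and the Aldh1a1 windows 42.8% and 46.4%, against a median of 52.4%. These matches describe the letters only.

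In epicardium and mesothelium, 56.4% of cells had a UMI of both Aldh1a1 and Aldh1a2, 16.6% of Aldh1a1 only, 17.9% of Aldh1a2 only and 9.09% of neither. By library the share with both was 66.0%, 68.9% and 67.9% in libraries 1 to 3, and 35.6%, 39.3% and 36.4% in libraries 4 to 6. The libraries thus fell at separate levels, with no value between 39.3% and 66.0%. Since no library is tied to a sample, these levels cannot be read as a treatment difference. The mix of cells by Hox genes also differed between these libraries, as given below. Median depth in these cells was 49285, 51768 and 55797 UMIs in libraries 1 to 3 and 48647, 41818 and 44875 in libraries 4 to 6. After thinning to 5000 UMIs the share with both was 7.46%, 10.4% and 13.8% in libraries 1 to 3 and 7.63%, 5.38% and 5.00% in libraries 4 to 6, so the ranges then overlapped. Of these cells 61, 67 and 35 in libraries 4 to 6 carried a barcode sequence found in another library, and 10, 31 and 2 did in libraries 1 to 3. Without them the unthinned share with both was 65.5%, 66.7% and 68.03% in libraries 1 to 3 and 21.05%, 24.4% and 25.7% in libraries 4 to 6. The cells left out had a median depth of 58431 UMIs, against 48760 over the whole type. Leaving them out thus takes deep cells mostly from libraries 4 to 6, and an unthinned share depends on depth. No thinned share without them is given. The thinned share with an Aldh1a1 UMI was 35.8%, 36.5%, 31.7%, 30.5%, 29.0% and 24.3% in libraries 1 to 6. That with an Aldh1a2 UMI was 21.6%, 26.1%, 39.8%, 16.1%, 23.1% and 29.3%, which did not separate the same libraries. Unthinned, the Aldh1a2 share was 78.4%, 75.1%, 87.8%, 58.5%, 67.7% and 63.6%, and the Aldh1a1 share 84.0%, 84.7%, 75.2%, 59.3%, 58.6% and 58.6%. Both of these separated libraries 1 to 3 from libraries 4 to 6. Over all libraries, Aldh1a2 was found in 27.2% of thinned cells with an Aldh1a1 UMI and in 26.7% of those without. This near equality joined libraries and Hox classes (below) in which the levels of these genes differed. No such comparison within a Hox class is given. Wt1, a defining marker, was at 211 to 267 CPM in epicardium and mesothelium by library, and the cardiomyocyte gene Myl7 at 772 to 1089 CPM. The part of cardiomyocyte RNA in the values of this type was not tested.

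**Figure D4:**
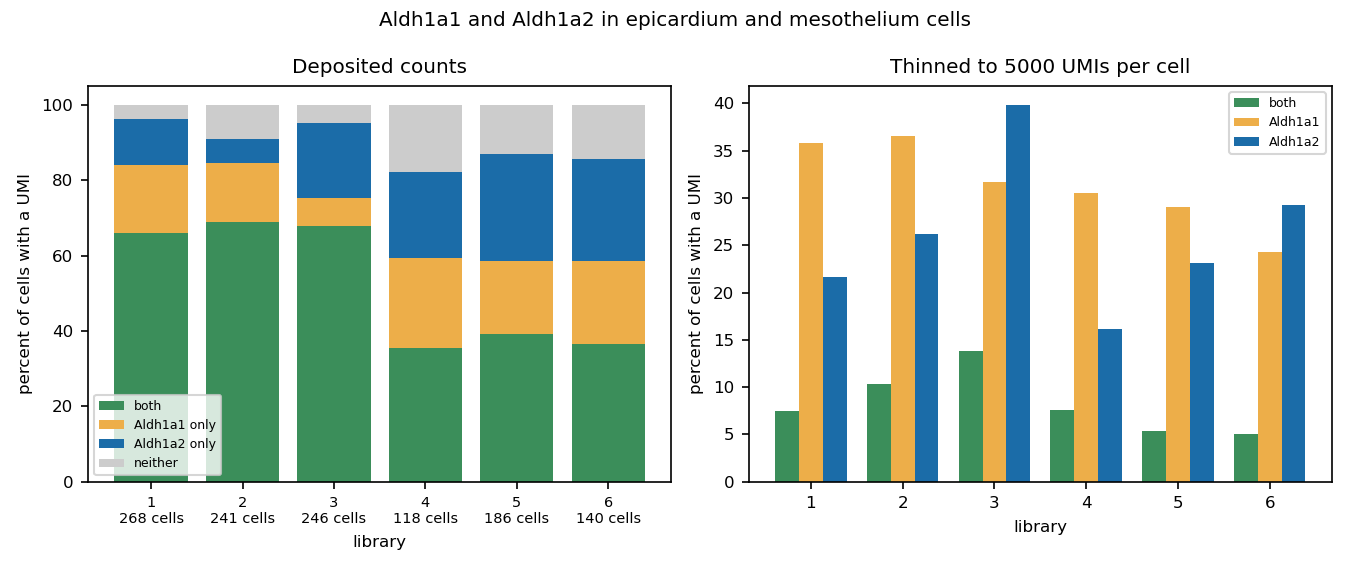
Percent of epicardium and mesothelium cells (vertical axis) of each library (horizontal axis) with a UMI of Aldh1a1, Aldh1a2, both or neither, as deposited (left) and after thinning each cell to 5000 UMIs (right). As deposited, the share with both was 66.0% to 68.9% in libraries 1 to 3 and 35.6% to 39.3% in libraries 4 to 6.

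Aldh1a3 (chr7:66390890-66427517, minus strand) stayed at a low level in every type. Among the gated types it was highest in surface ectoderm at 3.16 CPM (2.71 to 3.65, 180 UMIs). Migratory crest and glia followed at 2.36 CPM (1.68 to 3.23, 39 UMIs) and endoderm at 2.20 CPM (1.91 to 2.53, 202 UMIs). The 377 epithelial cells that could not be split had 4.96 CPM (3.86 to 6.28), above each of these types. Surface ectoderm of libraries 1 to 6 gave 2.87, 2.84, 2.92, 4.61, 2.70 and 2.87 CPM. The intervals of surface ectoderm and migratory crest overlapped, and the order of these leading types is not resolved at this depth. Thyroid and lung endoderm had 5.19 CPM (2.72 to 9.40 by library), pharyngeal pouch endoderm 2.70 CPM and ventricular cardiomyocytes 0.820 CPM. No Aldh1a3 UMI was counted in 49 megakaryocyte and platelet cells (up to 1.31 CPM) or 26 hepatocytes (up to 2.64 CPM).

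The genes also varied within a type with the Hox genes a cell expressed, which mark position along the head-to-tail axis. Cells were thinned to 10000 UMIs and sorted by whether they had no Hox UMI, UMIs of Hox groups 1 to 3 only, or a UMI of groups 4 to 6. In pharyngeal pouch endoderm Aldh1a1 stood at 4.84 CPM in cells with no Hox UMI (279 cells), 22.1 CPM with groups 1 to 3 only (434 cells) and 269 CPM with groups 4 to 6 (153 cells). With groups 4 to 6 the libraries gave 270.3, 227, 504, 156 and 193 CPM for libraries 1 to 5, and library 6 had 19 such cells. Every one of these exceeded the highest library value of the middle class, 47.6 CPM. Without the cells that shared a barcode sequence the pooled level with groups 4 to 6 was 303.6 CPM (123 cells), and only libraries 1 to 3 had 20 such cells, at 264, 238 and 494.5 CPM. Of the pouch cells with groups 4 to 6, 73.9% had an Aldh1a1 UMI, with a median of 6 and a maximum of 78 UMIs. Rdh10 stood at 23.2, 29.9 and 60.5 CPM, although library 2 had 33.7, 25.4 and 42.3 CPM, and Aldh1a7 stood at 6.46, 16.3 and 65.1 CPM. Aldh1a3 stood at 3.13, 3.16 and 0.768 CPM. Other genes of the pouch list differed between these classes too: Pax1 stood at 200, 205 and 47.9 CPM and Fgf8 at 80.6, 97.1 and 199.6 CPM. The order of Aldh1a1 was not particular to pouch cells. In the other endoderm cells it stood at 1.33, 4.75 and 47.8 CPM in the same classes. Thyroid and lung endoderm had 0.210, 1.13 and 15.8 CPM, from 1, 7 and 88 UMIs.

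In anterior second heart field the 4 genes above 1 CPM all had their highest pooled level in the cells with groups 4 to 6. Rdh10 was at 14.5 CPM in cells with no Hox UMI (578 cells), 45.6 CPM with groups 1 to 3 only (621 cells) and 73.8 CPM with groups 4 to 6 (814 cells). With 814 cells in the last class, the gate was not confined to anterior cells. Rdh10 of endoderm was at 33.5, 41.1 and 48.1 CPM in the same classes, above this type only with no Hox UMI. In anterior second heart field the lowest library with groups 4 to 6, library 3 at 41.0 CPM, was above the highest with no Hox UMI, 22.3 CPM. Library 1 had 73.7 CPM of Rdh10 with groups 4 to 6, near the 74.5 to 81.5 CPM of libraries 2, 4, 5 and 6. It was the lowest library with no Hox UMI (10.05 CPM) and low with groups 1 to 3 only (37.3 CPM). Of its cells in this type 46.5% had no Hox UMI, against 20.3% to 33.8% in the other libraries. Aldh1a2 was at 8.43, 24.2 and 48.9 CPM, and its libraries ranged from 4.85 to 13.4 CPM, 16.6 to 39.6 CPM and 31.3 to 58.6 CPM. Library 1 was an exception to the order for Aldh1a2, with 6.77, 39.55 and 36.7 CPM. Stra6 was at 11.5, 14.4 and 23.8 CPM, with libraries of 5.90 to 19.8, 11.2 to 17.9 and 19.3 to 25.6 CPM. For Stra6 the class without Hox UMIs and that with groups 4 to 6 overlapped through library 3, at 19.8 CPM and 19.3 CPM. Dhrs3 was at 3.73, 3.81 and 6.68 CPM, and its libraries overlapped, from 1.72 to 5.06 CPM with no Hox UMI and from 4.25 to 8.06 CPM with groups 4 to 6. Median depth was 29481, 31100 and 29210 UMIs in the 3 classes. Rarb, a receptor gene known to be induced by retinoic acid, was at 15.2, 43.9 and 71.8 CPM in the same classes. Among thinned cells of this type, Rdh10 was detected in 27.2% of those with an Aldh1a2 UMI and in 17.99% of those without.

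In epicardium and mesothelium Aldh1a1 was lower in cells with more posterior Hox UMIs. It stood at 113 CPM in cells with no Hox UMI (720 cells), 87.7 CPM with groups 1 to 3 only (228 cells) and 33.9 CPM with groups 4 to 6 (244 cells). Its libraries ranged from 100.5 to 136 CPM in the first class and from 7.72 to 73.4 CPM in the last, without overlap. Without the cells that shared a barcode sequence these ranges were 86.4 to 115 CPM, in the 5 libraries with 20 such cells, and 1.90 to 57.4 CPM. With all cells, libraries 1 to 6 gave 104.5, 115, 114.6, 136, 121.9 and 100.5 CPM with no Hox UMI. They gave 79.9, 107.5, 83.6, 90.2, 103.4 and 52.1 CPM with groups 1 to 3 only. With groups 4 to 6 they gave 57.9, 73.4, 32.85, 12.2, 28.1 and 7.72 CPM. Libraries 4 to 6 were thus all below libraries 1 to 3 only in the last class. Aldh1a2 was at 77.7, 76.7 and 118 CPM, with overlapping libraries (37.2 to 112 CPM and 50.6 to 169 CPM in the first and last), and in library 2 it was lowest with groups 4 to 6. Stra6 was at 0.418, 4.27 and 12.95 CPM and Dhrs3 at 0.314, 1.11 and 5.59 CPM. Library 2 was an exception for Stra6, at 0.220, 1.34 and 1.27 CPM, against 11.8 to 17.8 CPM with groups 4 to 6 in the other libraries. Dhrs3 with groups 4 to 6 ranged from 1.36 to 8.998 CPM by library. The share of cells with groups 4 to 6 was 8.27%, 12.1%, 22.5%, 30.5%, 38.4% and 22.3% in libraries 1 to 6. That with no Hox UMI was 73.3%, 69.6% and 61.5% in libraries 1 to 3 and 43.2%, 42.2% and 56.8% in libraries 4 to 6. The latter separated the same libraries as the unthinned share with both Aldh1a1 and Aldh1a2. The part of this mix in that share was not tested. Myl7 stood at 1072, 916 and 555.5 CPM in these classes and Wt1 at 279.5, 222 and 179 CPM, so the classes also differed in a cardiomyocyte gene and in a defining marker; the part of either in the gene levels was not tested. Median depth was 51545, 49656 and 40345 UMIs.

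**Figure D5:**
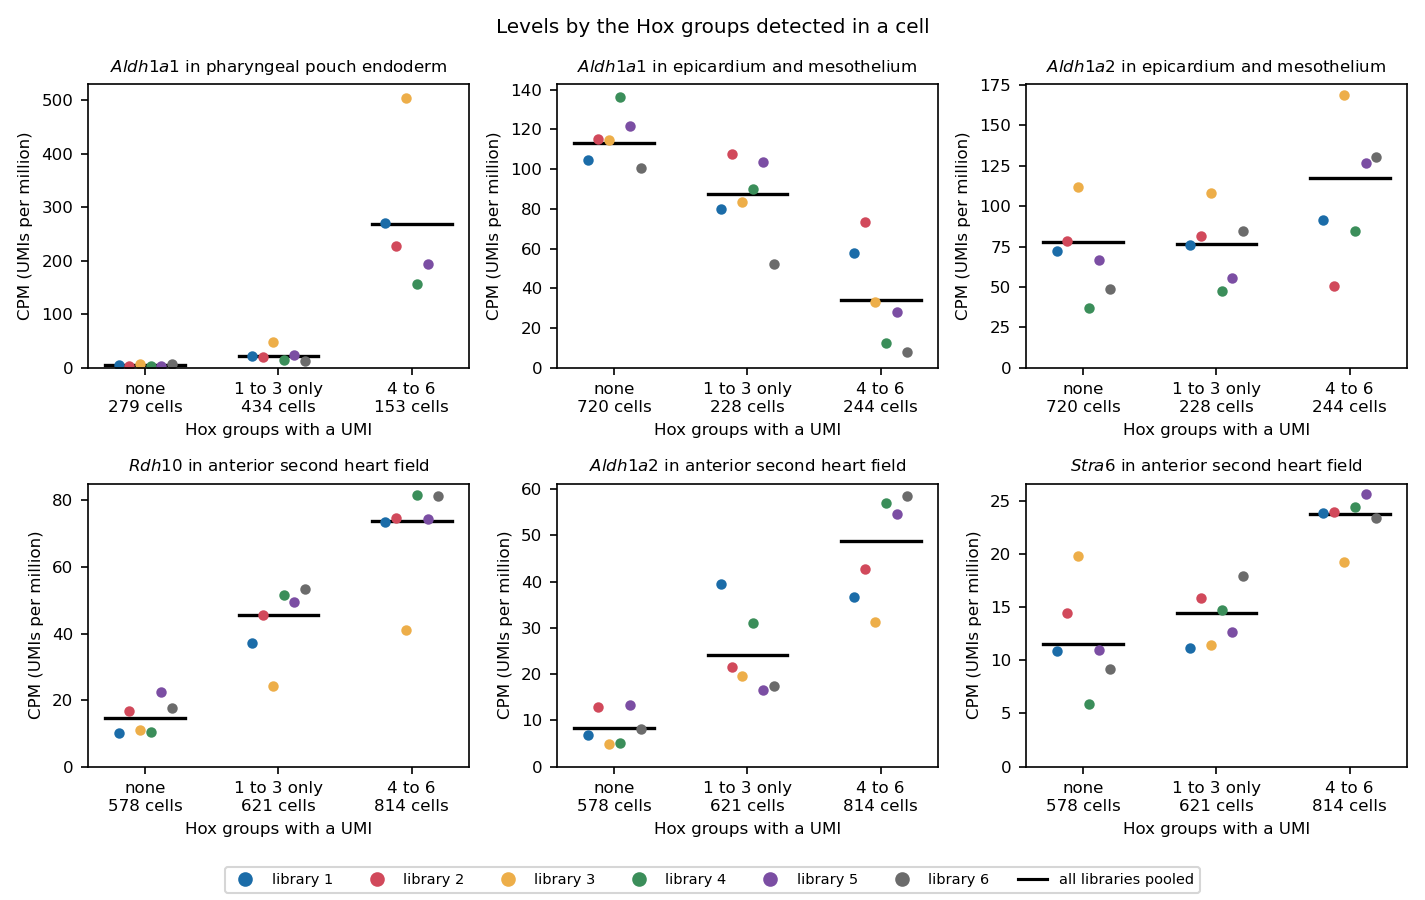
Level (vertical axis, CPM, linear from 0) in cells grouped by the Hox groups with a UMI (horizontal axis, cell numbers beneath), with points for libraries of at least 20 cells and black bars for the pooled value. Aldh1a1 was at 269 CPM in pouch cells with Hox groups 4 to 6 and 4.84 CPM in those with none, and in epicardium and mesothelium it was lower with groups 4 to 6 (33.9 CPM) than with none (113 CPM).

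Among Foxf1 mesoderm cells thinned to 5000 UMIs, Stra6 was detected in 13.9% of those with an Aldh1a2 UMI and in 8.73% of those without, whereas Rdh10 was detected in 6.77% and 6.80%. The near equality for Rdh10 joined unlike classes: in cells without Tbx4 and Nkx6-1 it was found in 12.6% of those with Aldh1a2 and 8.23% of those without, and in cells with either gene in 4.28% and 5.97%.

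For each gene, the 3 genes with the most similar pattern over the 16 types were found among genes at 10 CPM or more in their highest type. Aldh1a2 was most like Rspo1 (Pearson 0.952), Smim41 (0.936) and Ndst4 (0.919). Aldh1a1 was most like Gm29266 (0.957), Aldh1a7 (0.899) and Gpr39 (0.893). Stra6 was most like Paqr3 (0.892), Sorcs3 (0.887) and Dpf1 (0.886), Rdh10 like Ddb2 (0.827), Tunar (0.825) and Large2 (0.821), Dhrs3 like Mark2 (0.851), Abca1 (0.841) and Gm26542 (0.837), and Aldh1a3 like B230208H11Rik (0.923), Chst5 (0.869) and Pde11a (0.842). The megakaryocyte and platelet class, with 49 cells, did not enter this measure.

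Of 35 other genes of retinoid carriage, conversion, breakdown and reception, 20 reached 10 CPM in some type and 4 of those were at least 2-fold higher in their highest type than in the next. Of the 35, 10 reached 50 CPM. Migratory crest and glia led for the retinoic acid carriers Crabp1 (2171 CPM) and Crabp2 (477 CPM) and for the receptor Rara (74.7 CPM). In the 26 hepatocytes, the highest type of 7.51% of the 6283 genes that reached 50 CPM anywhere, 4 genes led, among them the plasma carriers Rbp4 (1650 CPM) and Ttr (1293 CPM), with Fabp5 (3366 CPM) and Dhrs4 (107.5 CPM). Adh5 led in branchiomeric muscle (253 CPM) and the receptor Rarb in endoderm (140.5 CPM). The degrading enzymes stayed lower: Cyp26b1 was highest in endoderm at 17.8 CPM, Cyp26a1 at 5.86 CPM and Cyp26c1 at 3.35 CPM. In the types that led for the synthesis genes, Rarb stood at 113 CPM in Foxf1 mesoderm, 34.4 CPM in epicardium and mesothelium and 46.7 CPM in anterior second heart field.

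Of 15 genes known to be induced by retinoic acid in embryos, 13 reached 10 CPM in some type, 4 of those were at least 2-fold above the next type, and 10 reached 50 CPM. Foxf1 mesoderm, the leading type of Aldh1a2 and Stra6, was the highest type for 4 of the 10, and for 3.63% of the 6283 genes that reached 50 CPM anywhere. Its 4 were Hoxa4 (54.0 CPM), Hoxa5 (61.8 CPM), Meis1 (443 CPM, against 399.6 CPM in anterior second heart field) and Nr2f2 (507 CPM), and the gate itself uses Hox genes. Epicardium and mesothelium, where Aldh1a1 and Aldh1a2 were high, led for 0 of the 10, and so did anterior second heart field. The share over all genes was not computed for these types or for the leading types that follow. Their counts are descriptions only, and nothing is read from the 0. Neurons led for Hoxb4 (192 CPM) and Hoxb5 (98.2 CPM), migratory crest and glia for Crabp2 and Nr2f1 (314 CPM), surface ectoderm for Meis2 (1177 CPM) and endoderm for Rarb, with Crabp2 and Rarb being on both lists. The share of all genes at 10 CPM that were at least 2-fold above the next type was 17.1%, beside 4 of 20 and 4 of 13 in these lists.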

How the data were processed

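Counts were deposited by the authors as 1 pooled table of whole-number UMI counts which the file headers credit to Cell Ranger 5.0.0; the submitters' processing notes also name CASAVA 1.8, Seurat 4 and the mm10 build. Barcodes with at least 2500 genes and at most 10% mitochondrial UMIs were kept. A marker counted as present with 2 or more UMIs; a type needed 3 to 6 of its markers, numbers set after seeing the data. Cells entering more than 1 non-mesenchymal type were left out, except that the megakaryocyte gate overrode endothelium and the hepatocyte gate overrode epithelium. The mesenchymal gates were Foxf1 mesoderm, anterior second heart field, branchiomeric muscle, paraxial mesoderm, crest, cushion, and smooth muscle and mural cells. A cell passing several of these went to the gate with the largest share of its markers present, and only ties were left out. No doublet caller was run. The genes and lists were chosen with earlier results of these data known. Genes outside the 6 were named as the 3 most similar per gene, or as list genes at 50 CPM or more; Cyp26a1, Cyp26b1, Cyp26c1, Aldh1a7, Myl7, Wt1, Pax1 and Fgf8 were added after their values were seen, and some list genes are not reported here. Poisson and exact (Clopper-Pearson) binomial intervals cover counting error only; a count of 0 was given a limit of 3 counts. Whether counting used strand is not given in the sources used here: Ccdc33 overlaps 4 Stra6 exons on the opposite strand (at most 0.910 CPM in any type) and C730002L08Rik 6 Aldh1a1 exons (at most 1.05 CPM). Gene positions are from GENCODE M21 (GRCm38). Python 3.11.15, numpy 2.4.6, scipy 1.17.1 and pandas 2.3.3 were used. The 2-fold call and the search for similar genes were tested on simulated sums, and the thinning was checked on real cells. The gates, the Hox classes, the detection of gene pairs and the motif search were not tested on simulated data.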

Additional observations from a re-analysis of the deposited data

How the results depend on the processing

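The alternatives were other cell filters, 1 more marker per gate, gates by the largest share of a marker list, thinning to 5000 UMIs, leaving out shared barcodes, the 5% of cells with the most UMIs or each library in turn, and equal weight for libraries; leaving out types under 100 cells, or barcode sequences found in another library at any depth, was chosen after seeing the data. The highest type of each gene was the same in all 16 of these (14 for Dhrs3, whose leading class was then absent). The count of genes at least 2-fold above the next type was 2, 2 without each library in turn, and 1 both with equal library weights over types with 20 cells in every library and without types under 100 cells, which drop the megakaryocyte and platelet class. The ratio of the highest to the next type ranged over all alternatives from 2.52 to 8.03 for Aldh1a1, 1.39 to 1.75 for Aldh1a2, 1.09 to 1.497 for Aldh1a3, 1.08 to 1.25 for Rdh10, 6.69 to 9.83 for Dhrs3 and 1.18 to 1.37 for Stra6. The 8.03 came with 1 more marker per gate, and the cause was not tested; without library 3 the ratio was 3.47 for Aldh1a1 and 1.75 for Aldh1a2. By Spearman correlation, 0 of the 3 most similar genes remained for Aldh1a1, Rdh10, Dhrs3 and Stra6, 1 for Aldh1a3 and 2 for Aldh1a2. No paired analysis was possible because no file read here ties a library to a sample, and for the same reason the planned streptozotocin comparisons (edgeR, DESeq2 size factors, no count filter, replicate block, leaving out replicates) were not run. Types of 26 to 79 cells limit what depth can show for hepatocytes, megakaryocytes and myeloid cells.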
